A study of Mus musculus with 6 samples.

Results

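The antioxidant target genes of the transcription factor Nrf2 were examined in mouse macrophages with and without an intact Cd28 gene. The set is 10 genes taken by symbol, namely Nqo1, Gclm, Gclc, Srxn1, Txnrd1, Gsr, Prdx1, G6pdx, Me1 and Osgin1, out of 14574 genes listed in any library. All 10 were listed in every library, and all 10 passed the filter on low values that left 10172 genes for testing (1 FPKM or more on average).

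The study compared bone marrow-derived macrophages, cells grown from flushed femoral marrow, of Cd28 KO mice with those of C57BL/6J (WT) mice, with 3 libraries per genotype. The mice were 6 to 10 weeks old, and cells of both genotypes spent 7 days in DMEM with 2-ME, 10% FCS and, renewed every 2 days, 25 ng/ml of human M-CSF, the growth factor that drives marrow cells to macrophages. They had no further treatment. The sources used here do not give the targeted part of Cd28, the strain background of the knockout or whether a replicate number marks 1 mouse. The spread behind each p-value is therefore that of these libraries. Between replicates 1 and 2 it may be technical, while replicate 3 differed from them in Y-linked genes, as given below. Values are FPKM, that is, fragments scaled to transcript length and to the library's mapped total, which allows levels to be set side by side between genes. The number of reads is not given, so no counting error can be attached to a value.

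Nrf2, encoded by Nfe2l2, is held at a low level by Keap1, an adaptor that hands it to a Cul3 ubiquitin ligase. Electrophiles and oxidants modify Keap1, and Nrf2 then accumulates, pairs with a small Maf protein and binds antioxidant response elements in its target genes, a site for which Bach1 competes as a repressor. The targets make glutathione, reduce thioredoxin and peroxiredoxins, supply NADPH and detoxify quinones, and in macrophages they buffer the oxidants of the respiratory burst.

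Letters that match the core of the antioxidant response element lie near an annotated start of 6 of the 10 genes, and the stretches are shown as a description. The genes were taken by symbol and not by this sequence. The letters TGACNNNGC were searched on both strands of windows from 250 bases before to 50 bases after an annotated start (RefSeq, build GRCm38.p6). A gene can have more than 1 such start and window. The table held 8 of the 10 genes. At least 1 window of 6 of them held the letters, Gclm, Srxn1, Txnrd1, Prdx1, G6pdx and Me1, against 14.0% of the 27025 genes in the table. No match lay in these windows of Nqo1 and Osgin1. Gclc and Gsr are not in the table. The matches follow, 5′ to 3′ on the strand of the motif, with the matching letters in capitals and 10 bases on either side.
Gclm, chr3:122245413-122245441, minus strand: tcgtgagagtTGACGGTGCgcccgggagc
Srxn1, chr2:152105542-152105570, minus strand: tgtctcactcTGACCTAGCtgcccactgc
Txnrd1, chr10:82859104-82859132, minus strand: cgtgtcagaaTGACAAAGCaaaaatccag
Prdx1, chr4:116685456-116685484, minus strand: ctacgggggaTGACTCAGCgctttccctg
G6pdx, chrX:74428919-74428947, plus strand: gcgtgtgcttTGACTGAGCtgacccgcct
Me1, chr9:86695902-86695930, minus strand: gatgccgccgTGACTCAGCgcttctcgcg

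Prdx1 and Me1 shared the same 9 letters, TGACTCAGC. On the gene's strand the match began 133 bases before the start in Prdx1, 134 before in Gclm, 92 before in Txnrd1 (in 1 of its 3 windows), 57 before in G6pdx and 6 before in Me1, and it began at base 29 after the start in Srxn1. A match is a description of letters and not evidence of binding. The 250 bases before the start of Prdx1, the most abundant member, on the gene's own strand (chr4:116685349-116685598, plus strand), with the match in capitals, where it reads as the reverse complement, are given next.
Prdx1: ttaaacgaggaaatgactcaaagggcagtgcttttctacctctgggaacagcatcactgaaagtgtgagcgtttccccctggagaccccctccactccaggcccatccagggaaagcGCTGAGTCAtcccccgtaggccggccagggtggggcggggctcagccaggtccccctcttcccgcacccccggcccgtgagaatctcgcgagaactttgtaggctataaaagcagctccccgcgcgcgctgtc

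Cd28 itself was read first as a check of the labels and was listed in all libraries. It stood at 25.7, 24.15 and 26.9 FPKM in Cd28 KO and at 38.2, 30.1 and 51.1 FPKM in WT, so the groups did not overlap. Its log2 difference of -0.59 ± 0.19 (SE) did not pass the test, at a limma adjusted p of 0.9995, or 0.18 with the replicate number as a block. All 10 macrophage markers, from Csf1r to Lyz2, were listed everywhere, at 4.63 FPKM or more. Their sum ranged from 15165 to 17275 FPKM over the Cd28 KO libraries and from 14515 to 15177 over those of WT. Among the markers of 7 other cell types no value exceeded 6.42 FPKM, that of Cd4, while Cd3d was at 0 in all libraries. The sum of the 4 mast cell markers was 1.68 to 2.09 FPKM with the knockout and 2.91 to 4.10 without, Kit being the 1 marker above 1 FPKM and Mcpt4 at 0 in all. The sum of the 7 neutrophil and precursor markers was 3.70 to 8.31 FPKM with the knockout and 2.15 to 6.18 without. It overlapped between genotypes, as did the sums of all other marker lists except that of mast cells. The part of these cells in the results was not tested. In both genotypes replicate 3 was unlike the other libraries: component 1 of a principal component analysis held 73.8% of the variance and placed them at 34.8 and 36.1, and the other 4 at -18.2 to -17.4. The Y-linked genes Eif2s3y, Ddx3y, Kdm5d and Uty were listed in those 2 libraries and at 0 in the other 4. Eif2s3y stood at 39.1 FPKM in Cd28 KO replicate 3 and at 31.8 in WT replicate 3. Replicate 3 thus held male cells in both genotypes, and the other 4 libraries showed no RNA of these genes. The values of the 10 genes are therefore given by replicate number.

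None of the 10 Nrf2 target genes differed between Cd28 KO and WT by the test. limma called 0 of the 10 at an adjusted p below 0.05, where it called 0.0197% of all 10172 tested genes, and 0 of the 10 had an unadjusted p below 0.05, against 2.49% of all. In every member the Cd28 KO and WT values overlapped, as they did in most tested genes. Among all tested genes the Cd28 KO libraries lay wholly above WT in 3.84% and wholly below in 2.87%. The median log2 difference over the 10 members was -0.02, beside -0.003 over all tested genes, with 4 members above 0 and 6 below. With the replicate number as a block, which raised the calls among all genes from 2 to 18 (0.177%, of which 0.138% higher and 0.0393% lower), still 0 members were called, and 1, Srxn1, had an unadjusted limma p below 0.05. The count was also 0 with a batch term for replicate 3, where 0.275% of all genes were called (0.197% higher, 0.0786% lower), and in replicates 1 and 2 alone, where 0.698% were (0.393% higher, 0.305% lower). In bulk RNA, a change in the number of expressing cells and a change in RNA per cell cannot be told apart.

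The intervals of the fit without a block show what size of difference that fit leaves possible. Apart from Osgin1, the widest 95% limits of the fold between genotypes reached 0.625 at the low end (Srxn1) and 1.497 at the high end (Me1). These folds come from log2(FPKM + 1), and the added 1 makes the change of a low gene look smaller. For Osgin1 the limits were 0.286 and 3.40, as this fit counts the shift of replicate 3 in both genotypes as spread. On the log2 scale its limits were -0.28 to 0.24 with the replicate block. With a batch term for replicate 3 they were -0.25 to 0.22.

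**Figure D1:**
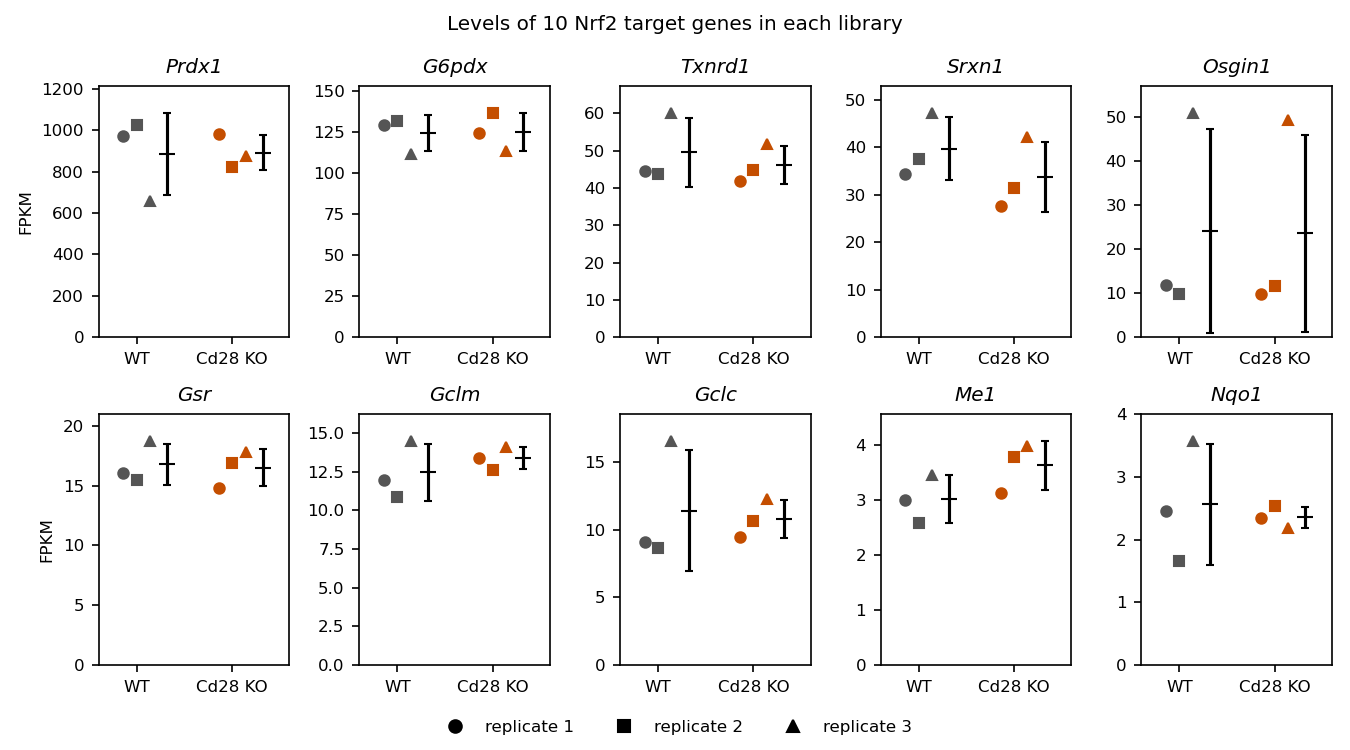
FPKM (vertical axes, starting at 0) of the 10 genes in each library by genotype; symbols mark replicate numbers, and the bar beside each group is the mean with its SD (n = 3). The groups overlap in every panel, and Osgin1 in replicate 3, at 49.3 and 50.9 FPKM, sits far above its other 4 values.

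Levels differed widely within the family. Prdx1 had a mean of 888 FPKM over the 6 libraries, within the top 0.924% of tested genes, and made up 66.8% to 79.9% of the 10 genes' summed FPKM. G6pdx followed at 124, Txnrd1 at 47.8, Srxn1 at 36.8, Osgin1 at 23.9, Gsr at 16.6, Gclm at 12.9, Gclc at 11.1, Me1 at 3.33 and Nqo1 at 2.46 FPKM. Between neighbours in this order, the libraries did not overlap from Prdx1 to G6pdx, from G6pdx to Txnrd1, from Gsr to Gclm and from Gclc to Me1. They did overlap between Txnrd1, Srxn1, Osgin1 and Gsr in turn, between Gclm and Gclc, and between Me1 and Nqo1.

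Glutathione synthesis starts with glutamate-cysteine ligase, of which Gclc is the catalytic and Gclm the modifier subunit. Gclc (Entrez 14629, chromosome 9, 77754535 to 77794489, GRCm38) stood at 9.48, 10.6 and 12.3 FPKM in Cd28 KO replicates 1 to 3 and at 9.07, 8.62 and 16.6 in WT. Its highest value was WT replicate 3, while in replicates 1 and 2 both Cd28 KO libraries lay above both WT libraries. The log2 difference was -0.02 ± 0.25 (SE; limma adjusted p = 0.9995).

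Gclm (Entrez 14630, chromosome 3, 122245487 to 122267215) had the same order of genotypes from its lowest to its highest library, with a smaller spread. It stood at 13.4, 12.6 and 14.1 FPKM in Cd28 KO and at 11.97, 10.9 and 14.5 in WT. The lowest 2 values were WT and the highest was WT replicate 3, so that the Cd28 KO range lay inside the WT range. Cd28 KO minus WT was log2 0.10 ± 0.14 (SE; limma adjusted p = 0.9995).

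Gsr (Entrez 14782, chromosome 8, 33653238 to 33698162), glutathione reductase, returns oxidized glutathione to its reduced form with NADPH. It stood at 14.8, 16.9 and 17.85 FPKM in Cd28 KO and at 16.1, 15.5 and 18.8 in WT. The values of the genotypes were interleaved, with replicate 3 highest in both. Cd28 KO minus WT came to log2 -0.02 ± 0.13 (SE; limma adjusted p = 0.9995).

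Prdx1 (Entrez 18477, chromosome 4, 116685599 to 116700000) is a cytosolic peroxiredoxin that reduces hydrogen peroxide. It stood at 983, 820.3 and 873 FPKM in Cd28 KO and at 974, 1023 and 656 in WT. WT held both its highest and its lowest value, and the lowest was replicate 3. The means were 892 ± 82.8 and 884 ± 199 FPKM (SD, n = 3 each). The log2 difference was 0.04 ± 0.18 (SE; limma adjusted p = 0.9995), and it was negative when values were rescaled to a common sum or quantile normalized.

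Srxn1 (Entrez 76650, chromosome 2, 152105524 to 152111376), sulfiredoxin, repairs peroxiredoxins whose active-site cysteine has been overoxidized. It stood at 27.7, 31.5 and 42.1 FPKM in Cd28 KO and at 34.4, 37.5 and 47.3 in WT. Cd28 KO was below WT at each replicate number, by log2 -0.30, -0.25 and -0.16, although the groups overlapped. On the log2 scale the difference was -0.24 ± 0.19 (SE; limma adjusted p = 0.9995). With the replicate block its 95% interval was -0.44 to -0.03, at a limma adjusted p of 0.56.

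Txnrd1 (Entrez 50493, chromosome 10, 82833951 to 82897724), cytosolic thioredoxin reductase, keeps thioredoxin reduced with NADPH. It stood at 41.7, 44.7 and 51.7 FPKM in Cd28 KO and at 44.6, 43.8 and 60.1 in WT. The genotypes were interleaved in replicates 1 and 2, and replicate 3 was highest in both. The log2 difference was -0.09 ± 0.15 (SE; limma adjusted p = 0.9995). Eid3, another gene listed in the files, lies within the bounds of Txnrd1, and Ikbkg overlaps those of G6pdx. The sources used here do not say whether reads were counted by strand, and whether shared stretches touch the values of these pairs was not tested.

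NADPH, on which both reductases depend, is supplied by G6pdx and Me1. G6pdx (Entrez 14381, chromosome X, 74409483 to 74428880), glucose-6-phosphate dehydrogenase of the pentose phosphate pathway, stood at 124, 136 and 114 FPKM in Cd28 KO and at 129, 132 and 111 in WT. The means were 125 ± 11.5 and 124 ± 11.0 FPKM (SD, n = 3 each), and replicate 3 was lowest in both genotypes. Its log2 difference of 0.01 ± 0.11 (SE; limma adjusted p = 0.9995) had the narrowest interval of the family, -0.26 to 0.27, and its sign turned negative with the same 2 scalings as Prdx1. The near-identical copies G6pd2 and Prdx1-ps, to which reads could be assigned, were listed in none of the 6 libraries.

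Me1 (Entrez 17436, chromosome 9, 86581363 to 86695914), cytosolic malic enzyme, stood at 3.13, 3.78 and 3.99 FPKM in Cd28 KO and at 3.01, 2.58 and 3.46 in WT. Cd28 KO was above WT at each replicate number, by log2 0.04, 0.42 and 0.16, yet Cd28 KO replicate 1 lay below WT replicate 3. Over all libraries the log2 difference was 0.21 ± 0.16 (SE; limma adjusted p = 0.9995). Srxn1 and Me1 were the 2 of 10 members with 1 sign at all 3 replicate numbers, and 28.3% of all tested genes had 1 sign at all 3.

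Nqo1 (Entrez 18104, chromosome 8, 107388225 to 107403205), the quinone reductase often used as the readout of Nrf2 activity, was the lowest of the family. It stood at 2.35, 2.53 and 2.19 FPKM in Cd28 KO and at 2.46, 1.66 and 3.58 in WT. WT held both the highest and the lowest value, replicates 3 and 2, with all Cd28 KO libraries between them. Cd28 KO differed from WT by log2 -0.05 ± 0.22 (SE; limma adjusted p = 0.9995).

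Osgin1 (Entrez 71839, chromosome 8, 119425882 to 119446257), a growth inhibitor induced by oxidative stress, varied most among libraries and hardly between genotypes. It stood at 9.90, 11.5 and 49.3 FPKM in Cd28 KO and at 11.9, 9.71 and 50.9 in WT. Replicate 3 was the high library in both genotypes, 4.60-fold above the mean of replicates 1 and 2 in Cd28 KO and 4.71-fold in WT. The log2 difference between genotypes was -0.02 ± 0.76 without a block (SE; limma adjusted p = 0.9995), and its error was 0.12 with the replicate block (limma adjusted p = 0.99).

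**Figure D2:**
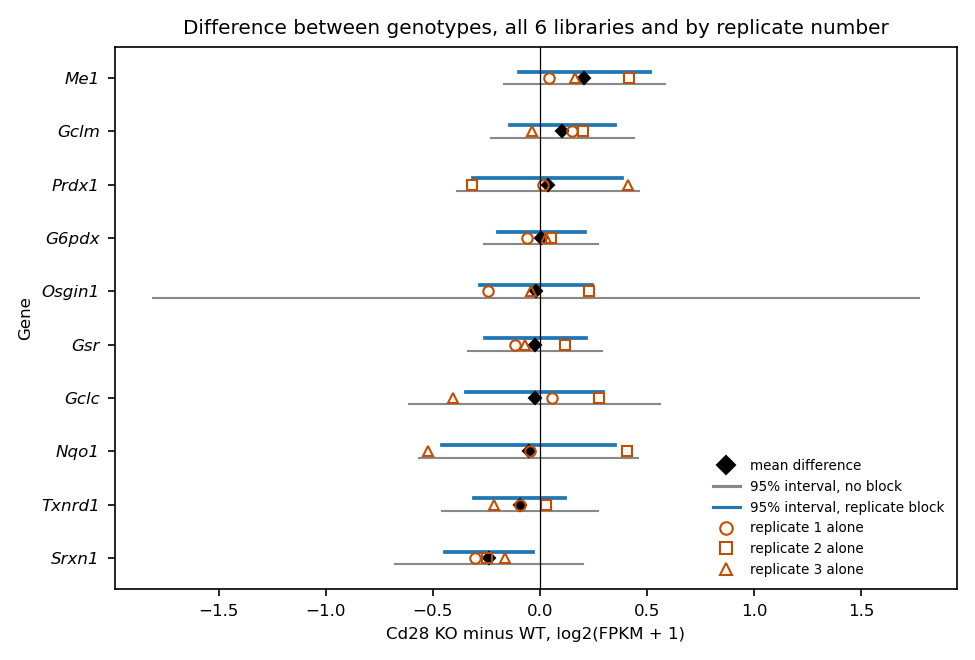
Cd28 KO minus WT on the log2(FPKM + 1) scale (horizontal axis) for each gene (vertical axis): diamonds are the mean difference, lines the 95% limma intervals without a block (grey) and with the replicate block (blue), and open symbols the difference at each replicate number (1 library against 1). Every grey line crosses 0, and with the block that of Srxn1, -0.44 to -0.03, does not.

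Replicate numbers were set apart next, since replicate 3 libraries differed from the rest in both genotypes. In 7 of the 10 members replicate 3 was above both other replicates in each genotype, a pattern of 18.4% of all tested genes, and in 1, G6pdx, it was below both in each genotype, as in 38.7% of all. The median shift of replicate 3 over the 10 members was log2 0.17 in Cd28 KO and 0.35 in WT, where the medians over all tested genes were -0.13 and -0.09. Osgin1 was the 1 member at least 2-fold higher in replicate 3 of both genotypes on the FPKM + 1 scale, as were 2.32% of all tested genes. Its shifts, log2 2.11 in Cd28 KO and 2.14 in WT, were within the top 0.737% and 0.727% of tested genes. These shifts are given as values, without a test, and what sets replicate 3 apart was not tested.

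Gclc, Srxn1 and Txnrd1 followed Osgin1 at smaller size. Gclc in replicate 3 was 1.22-fold the mean of replicates 1 and 2 in Cd28 KO and 1.88-fold in WT. For Srxn1 the ratios were 1.42 and 1.31, and for Txnrd1 1.20 and 1.36. The ratios of Nqo1 were 0.898 and 1.74, and those of Prdx1 0.969 and 0.657. Each ratio rests on 1 replicate 3 library.

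Whether the genotype difference itself was unlike in replicate 3 was tested with an interaction term in limma, a fit that leaves 2 residual degrees of freedom. Replicate 3 is 1 library per genotype and is fitted exactly, so the residual spread comes from replicates 1 and 2 alone, and replicate 3 is assumed to vary like them. None of the 10 members was called at an adjusted p below 0.05, against 0.0688% of all tested genes. At an unadjusted p below 0.05 it listed 3 of the 10, Gclc, Nqo1 and Prdx1, and 18.9% of all tested genes. The difference in replicate 3 minus that in replicates 1 and 2 was log2 -0.57 ± 0.18 for Gclc (SE; limma adjusted p = 0.17), -0.70 ± 0.26 for Nqo1 (adjusted p = 0.21) and 0.57 ± 0.21 for Prdx1 (adjusted p = 0.20). Within replicates 1 and 2 alone the differences between genotypes were 0.17 for Gclc, 0.18 for Nqo1 and -0.15 for Prdx1, and in replicate 3 alone they were -0.40, -0.52 and 0.41. The median over the 10 members was -0.001 in replicates 1 and 2 and -0.06 in replicate 3.

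**Figure D3:**
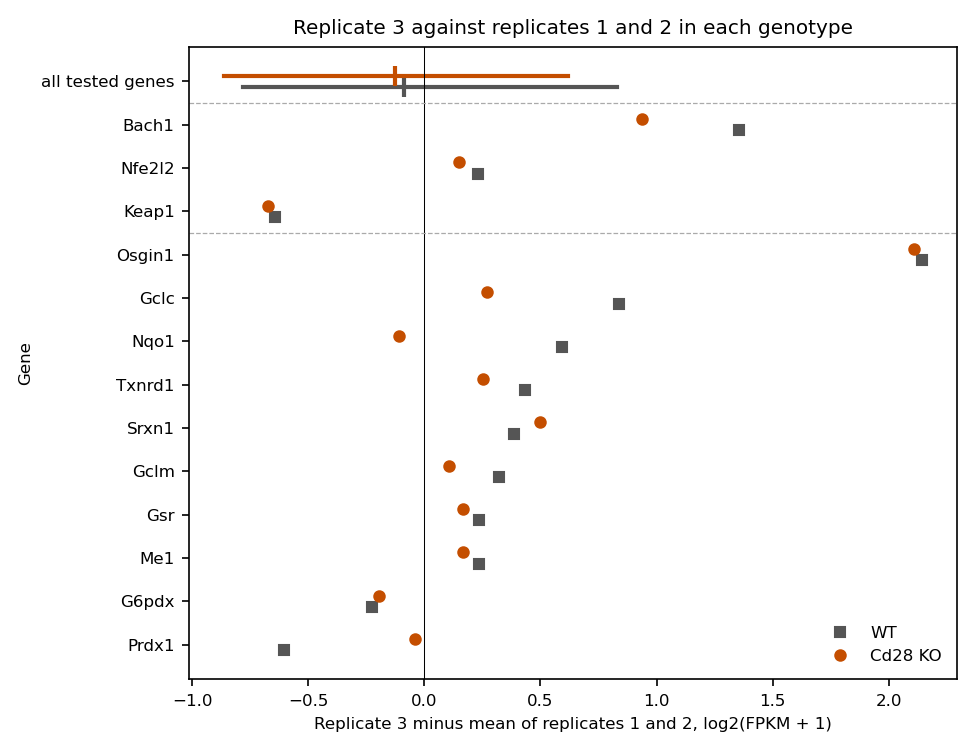
Replicate 3 minus the mean of replicates 1 and 2 in log2(FPKM + 1) (horizontal axis) for the 10 target genes, for Keap1, Nfe2l2 and Bach1, and for all tested genes (median and the range from the 5th to the 95th percentile), in WT (squares, grey) and Cd28 KO (circles, orange). Osgin1, at 2.14 and 2.11, and Bach1, at 1.35 and 0.94, lie above the 95th percentile of all tested genes in both genotypes.

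Nrf2 and its regulators did not pass the test either. Of 13 genes on the list of Nrf2 and its regulators all 13 were tested, 0 were called and 0 had an unadjusted limma p below 0.05, with a median log2 difference of -0.05. Nfe2l2, which encodes Nrf2, stood at 163, 175 and 187 FPKM in Cd28 KO and at 159.9, 156 and 185 in WT. Keap1, its cytosolic anchor, stood at 29.3, 30.8 and 18.5 FPKM in Cd28 KO and at 29.45, 27.4 and 17.8 in WT. Bach1, the competing repressor, stood at 19.2, 22.0 and 40.2 FPKM in Cd28 KO and at 19.8, 19.9 and 52.3 in WT. Within a genotype, Keap1 was lowest and Bach1 and Nfe2l2 were highest in replicate 3. The log2 differences between genotypes were 0.07 ± 0.11, 0.07 ± 0.25 and -0.09 ± 0.42 (SE) for Nfe2l2, Keap1 and Bach1, each at a limma adjusted p of 0.9995.

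Further genes of the pathway came from 6 lists with 115 genes in all, of which 93 were tested. limma called 0 of the 93, also with the replicate block, with a batch term for replicate 3 and in replicates 1 and 2 alone, and 1 of them, Cbr1, had an unadjusted p below 0.05. Of the 93, 4 (4.30%) had all Cd28 KO libraries above WT and 2 (2.15%) all below, shares near the 3.84% and 2.87% of all tested genes.

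Among other Nrf2 targets, 24 of 34 genes were tested, 16 with a positive and 8 with a negative difference and a median of log2 0.09, beside 4998 positive, 5174 negative and -0.003 over all tested genes. By replicate number this median was 0.05 in replicates 1 and 2 and 0.29 in replicate 3, where those of all tested genes were 0.03 and -0.05. Cbr1, a carbonyl reductase, stood at 35.5, 32.25 and 25.7 FPKM in Cd28 KO and at 26.4, 21.75 and 17.1 in WT. It was higher in Cd28 KO at each replicate number, with overlapping groups, and its log2 difference was 0.51 ± 0.19 (SE; limma adjusted p = 0.9995, and 0.15 with the replicate block). Blvra, biliverdin reductase, stood at 94.1, 78.0 and 80.5 FPKM against 76.8, 68.5 and 63.3 without overlap, with a log2 difference of 0.27 ± 0.12 (SE; limma adjusted p = 0.9995). Pir, on chromosome X, and Htatip2, both named after their values were seen, were the other 2 of this list without overlap. Pir stood at 3.06 to 3.99 FPKM against 2.65 to 2.88, and Htatip2 at 26.3 to 28.6 against 22.3 to 26.15.

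Glutathione synthesis and use had 17 of 22 genes tested, 11 with a positive and 6 with a negative difference and a median of log2 0.10. This median was 0.06 in replicates 1 and 2 and 0.21 in replicate 3. Glrx3, a glutaredoxin, stood at 32.3, 26.3 and 28.3 FPKM in Cd28 KO and at 25.65, 25.3 and 23.55 in WT, without overlap. Gstk1, a mitochondrial and peroxisomal glutathione transferase, stood at 12.3, 11.0 and 10.7 against 11.4, 8.08 and 7.64 FPKM. Their log2 differences were 0.21 ± 0.12 and 0.31 ± 0.17 (SE; limma adjusted p = 0.9995 for each).

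The thioredoxin and peroxiredoxin system beyond the 10 genes had 15 of 17 genes tested, 11 positive and 4 negative, with a median of log2 0.08. This median was -0.04 in replicates 1 and 2 and 0.27 in replicate 3. Prdx2, a cytosolic relative of Prdx1, stood at 142, 118 and 129 FPKM in Cd28 KO and at 122, 117 and 100.4 in WT. Txnrd3, a thioredoxin reductase best known from testis, stood at 1.44, 1.70 and 2.13 against 2.19, 1.86 and 2.94 FPKM. Their log2 differences were 0.20 ± 0.12 and -0.27 ± 0.18 (SE; limma adjusted p = 0.9995 for each).

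NADPH supply had 16 of 17 genes tested, 10 positive and 6 negative, with a median of log2 0.02 (-0.03 from replicates 1 and 2, 0.02 from replicate 3). It held both pathway genes that were lower in every Cd28 KO library. Mthfd1l, a mitochondrial folate enzyme, stood at 2.35, 2.86 and 2.83 FPKM in Cd28 KO and at 3.64, 3.25 and 4.67 in WT. H6pd, the glucose-6-phosphate dehydrogenase of the endoplasmic reticulum, stood at 13.0, 13.64 and 11.2 against 13.65, 14.6 and 14.7 FPKM. Its groups nearly met, at Cd28 KO replicate 2 and WT replicate 1. Their log2 differences were -0.39 ± 0.17 and -0.17 ± 0.12 (SE; limma adjusted p = 0.9995 for each).

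Superoxide production and removal, the source of the oxidants these genes handle, had 11 of 15 genes tested, 5 positive and 6 negative, with a median of log2 -0.01 (-0.06 from replicates 1 and 2, 0.04 from replicate 3). Sod1, cytosolic superoxide dismutase, stood at 429, 351 and 470.4 FPKM in Cd28 KO and at 347, 368 and 348.5 in WT. Cybb, the catalytic subunit of the phagocyte NADPH oxidase, stood at 175, 186 and 192 against 185, 201 and 221 FPKM. Both overlapped between genotypes, with log2 differences of 0.22 ± 0.12 and -0.13 ± 0.10 (SE; limma adjusted p = 0.9995 for each).

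**Figure D4:**
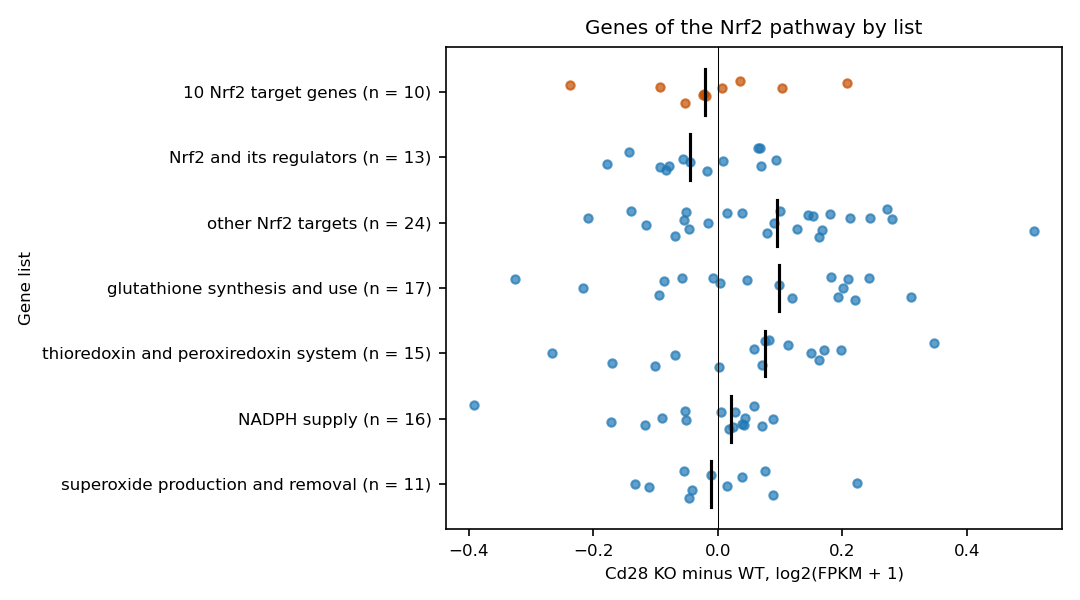
Cd28 KO minus WT in log2(FPKM + 1) (horizontal axis) for the tested genes of each list (vertical axis, with the number tested; vertical jitter is for legibility), with the 10 target genes in orange and each list's median as a black line. Medians run from -0.05 for Nrf2 and its regulators to 0.10 for glutathione synthesis and use, and no gene shown was called.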

How the data were processed

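RNA of 6 libraries (3 Cd28 KO, 3 WT, grouped by their titles) was measured as FPKM. The authors deposited 1 FPKM for each gene of a library. Bowtie, RSEM and GRCm38 are named per the submitters' processing notes, and versions, annotation and strand setting are not given there. RSEM divides reads among similar sequences by estimation. Files list genes above 0 (12768 to 13327 per library, sums of 510937 to 576313 FPKM), and a missing gene was taken as 0. Depth is unknown. Of 14574 Entrez numbers, 14551 matched RefSeq GRCm38.p6, the source of symbols, coordinates and promoters.

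The 10172 genes averaging 1 FPKM or more were fitted with limma 3.58.1 in R 4.3.3 on log2(FPKM + 1), empirical Bayes with trend, two-sided, without a block, and adjusted over all tested genes by Benjamini-Hochberg. A gene was called at an adjusted p below 0.05. The interaction fit held genotype, replicate 3 or not, and their product. The code of the fit was run on simulated data with the same spread for every gene and no shift of replicate 3. That run does not show how the fit behaves with the spread of these libraries. Same-numbered libraries' deviations from their group means correlated at 0.752, 0.505 and 0.783, all over the cut-off of 0.1. Replicate 3 stood apart in both groups, so replicates 1 and 2 deviated the same way in each. The correlations therefore show the split of replicate 3. They cannot show that replicate 1 pairs with 1, or 2 with 2, and the block takes that pairing from the numbers. Alternatives were another pseudocount, 2 filters, 2 scalings, the replicate block, a batch term for replicate 3, replicates 1 and 2 alone and each library left out.

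Genes named are the 10 members, Nfe2l2, Keap1, Bach1, Cd28 and the 2 genes of smallest p per other list. The members, lists and rules were chosen with earlier results of these data known. Python 3.11.15, pandas 2.3.3, NumPy 2.4.6 and Matplotlib 3.10.9 were also used.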

Additional observations from a re-analysis of the deposited data

How the results depend on the processing

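The count of members called was 0 in all 14 alternatives, with a smallest limma adjusted p of 0.29, in replicates 1 and 2 alone. Over all tested genes limma called 2 in the reported fit, 5 without a filter, 18 with the replicate block, 28 with a batch term for replicate 3 and 71 in replicates 1 and 2 alone, and 2 with each library left out. The block, which pairs libraries by number, changed the call of no member or named gene. The interaction term called 7 genes, 42 without a filter and 166 on the TPM scale (FPKM rescaled to a common sum), with 0 members in each. That scale moved the median of all genes from -0.003 to -0.059. The members' median of -0.02 was -0.08 on it, and -0.12 to 0.10 with 1 library left out, the highest without WT replicate 3.

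Of 138 member differences under alternatives 22 changed sign, as did 7 of 194 for the other named genes, and none was called in either direction. These totals include the 2 filters, the replicate block and the batch term. By construction those settings leave a gene's log2 difference as in the reported fit, so no sign could change there. The totals therefore make the signs look steadier than the other alternatives show. On the TPM scale Prdx1 was -0.025 and G6pdx -0.054, and with quantile normalization -0.11 and -0.019. In replicates 1 and 2 alone Nqo1 was 0.18, Gclc 0.17, Gsr 0.0020, Prdx1 -0.15, G6pdx -0.0041 and Bach1 0.047. With 1 library left out the ranges were -0.25 to 0.14 for Nqo1, -0.18 to 0.26 for Gclc, -0.18 to 0.051 for Txnrd1, -0.077 to 0.057 for Gsr, -0.17 to 0.15 for Prdx1, -0.069 to 0.071 for G6pdx, -0.72 to 0.69 for Osgin1, -0.15 to 0.29 for Keap1 and -0.40 to 0.36 for Bach1. For Osgin1 the ends are those without Cd28 KO and without WT replicate 3. The cause of the other sign changes was not tested. A minimum mean of 5 FPKM left out Me1 and Nqo1.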

Other observations

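Genes of the pathway lists that were at least 2-fold apart between replicate 3 and the other replicates in both genotypes, on the FPKM + 1 scale, were named after their values were seen. Mafk and Maff, small Maf partners of Nrf2 and Bach1, were higher in replicate 3. Maff stood at 18.8 FPKM in Cd28 KO replicate 3 and 16.05 in WT replicate 3, and at 0.80 to 1.64 in the other 4 libraries, and Mafk at 31.2 and 32.0 against 12.6 to 15.0. Of the 17 tested genes of glutathione synthesis and use, 2 were higher as well. Slc3a2, the heavy chain of the cystine transporter, stood at 332 and 304 FPKM against 105 to 130.5. Chac1, a glutathione-degrading enzyme, stood at 6.57 and 9.19 against 0.27 to 0.96. Txnip, an inhibitor of thioredoxin, and Sesn1, a sestrin, were lower, Txnip at 59.4 and 70.0 FPKM against 209 to 248 and Sesn1 at 16.1 and 15.8 against 58.5 to 72.8. Over all tested genes, 2.32% were at least 2-fold higher and 1.22% at least 2-fold lower in replicate 3 of both genotypes. These differences were not tested.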
